A study of Homo sapiens with 18 samples.

Results

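Keratin genes were taken as every non-control spot whose gene name was KRT followed by a number, with or without a letter A to C, which left out keratin pseudogenes and keratin-associated proteins. The rule gave 55 keratins, read by 64 probes, of the 36204 gene names and 50599 probes on the array. RNA of 2 colorectal cancer cell lines was hybridised to 18 Agilent arrays of the one-colour kind. HT29 is sensitive to oxaliplatin (OXA), a platinum drug, and HTOXAR3 is a subline of HT29 that is resistant to it. Each line was left untreated, treated for 24 h with OXA (10 µM for HT29 and 30 µM for HTOXAR3), or treated for 24 h with that OXA dose together with 10 µM Curcumin, a plant polyphenol. Every one of the 6 groups held 3 arrays that the labels call biological replicates. The resistant line is a single subline, so a difference between the lines is a difference between these 2 cultures. The OXA dose differed between the lines, and no arrays with Curcumin alone were analysed here.

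Keratins build the intermediate filaments of epithelial cells. A filament needs a type I (acidic) and a type II (basic to neutral) keratin in equal amounts, and each kind of epithelium uses its own pairs. Gut epithelium and the carcinomas that arise from it are built on the simple-epithelial pair *KRT8* and *KRT18* with *KRT19* and *KRT20*, whereas stratified epithelia such as skin use *KRT5* with *KRT14* in the basal layer, other pairs in the layers above, and *KRT6*, *KRT16* and *KRT17* when they are wounded. Hair shafts and their root sheaths have further keratins of their own. The type II genes and *KRT18* lie together on chromosome 12 and the other type I genes together on chromosome 17.

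The 55 names followed that arrangement, with 27 on chromosome 12 (26 type II genes and *KRT18*) and 28, all of type I, on chromosome 17. The scanner software called between 52.4% and 63.6% of an array's spots well above background, no keratin spot was saturated, and the lowest correlation between 2 arrays of a group was 0.985. Over all 18 arrays, 25 keratins (45.5%) were well above background on every array, 13 on none and 17 on some, against 48.2% of all gene names on every array. All 6 keratins of simple epithelia were among those found on every array. Of 10 intestinal epithelial markers, 9 were well above background on all 3 arrays of untreated HT29 and 6 on those of untreated HTOXAR3, which include the array with the lowest share of spots above background (52.4%). With OXA there were 8 in each line, and with the combination 8 in HT29 and 7 in HTOXAR3. The intestinal cadherin CDH17 was not well above background on any HTOXAR3 array. The part of this difference in the results between the lines was not tested. Of 5 markers of stratified epithelium, *KRT14* was well above background on all arrays of all 6 groups, read from its brightest probe. *KRT5* and DSC3 were not well above background on any array, and TP63 and DSG3 on no array of 5 groups. The group mean of a probe reflects the bulk of the culture, so fewer cells with a transcript and less transcript per cell cannot be told apart.

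The probe sequences behind the results that follow are given 5′ to 3′ in the sense of the transcript, with GRCh37 positions from the array annotation. They are shown because *KRT14*, *KRT16* and *KRT17* are close relatives that lie next to each other on chromosome 17, and because 1 of the 3 probes of *KRT14* was bright on every array and carried its calls. Capitals in the first 2 lines mark the 32 letters that match over the 43 bases in which the used *KRT14* probe and the *KRT16* probe overlap. The best ungapped overlap of that *KRT14* probe with the *KRT17* probe, which lies elsewhere in its transcript, matched in 21 of 59 bases.
KRT14, probe A_33_P3345534, chr17:39740013-39740072, minus strand: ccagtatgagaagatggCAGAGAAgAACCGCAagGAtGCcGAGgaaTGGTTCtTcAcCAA
KRT16, probe A_23_P38537, chr17:39767216-39767364, minus strand, across an intron: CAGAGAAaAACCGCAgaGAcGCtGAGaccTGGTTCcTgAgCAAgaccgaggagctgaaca
KRT14, probe A_21_P0011517, chr17:39742569-39742628, minus strand: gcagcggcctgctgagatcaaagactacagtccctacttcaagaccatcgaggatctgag
KRT14, probe A_21_P0011633, chr17:39738706-39738765, minus strand: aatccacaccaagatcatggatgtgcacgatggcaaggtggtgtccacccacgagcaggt
KRT17, probe A_23_P96158, chr17:39776976-39777035, minus strand: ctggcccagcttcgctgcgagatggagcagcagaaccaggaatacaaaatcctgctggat

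Values are log2 normalized intensities, on which 1 unit is a doubling, and a keratin was called changed when its adjusted p from limma with Benjamini-Yekutieli (BY) adjustment over all 36204 names was below 0.05 and its fold change above 1.2. Over 12 comparisons 14 of the 55 keratins (25.5%) were called at least once, against 33.6% of all names. The calls made 57 pairs of a keratin and a comparison. When each comparison was fitted to its own groups alone, which leaves fewer arrays to estimate the spread, 35 of the 57 calls were lost.

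Of the 6 keratins of simple epithelia, *KRT7*, *KRT19* and *KRT20* were called in at least 1 comparison (50%, against 33.6% of all names). Their called differences were 0.29 to 0.53. Untreated HT29 had *KRT8* at 15.75, 15.85 and 15.97 and untreated HTOXAR3 at 15.98, 16.02 and 16.09, a difference of 0.17 (95% confidence interval 0.01 to 0.34) that was not called. Its filament partner *KRT18* was at 18.33 ± 0.06 (SD, n = 3) in untreated HT29 and 18.47 ± 0.02 in untreated HTOXAR3, a difference of 0.14 (95% confidence interval 0.03 to 0.25). *KRT8* and *KRT18* were not called in any of the 12 comparisons. The fitted differences of their used probes in the 9 comparisons of groups lay between −0.04 and 0.21. With normexp values scaled to each array's 75th percentile instead of quantile normalization, *KRT18* was called lower with OXA in HTOXAR3, at −0.27. Quantile normalization sets each value by its rank on the array, and *KRT18* was the brightest keratin. On HTOXAR3 OXA replicates 1 and 3 it had the same value, 18.4388. The absence of a call is therefore no measure of how stable *KRT18* was. A second *KRT18* probe, A_24_P42136, rose by 0.27 in HT29 and by 0.32 in HTOXAR3 under the combination (limma, BY adjusted p = 0.0249 and 0.0065). Adjusted p-values of second probes, here and for *KRT14* and *KRT83*, come from a fit to the 50599 probes singly, adjusted over them. *KRT7*, another simple type II keratin, was called once, 0.37 higher in HTOXAR3 than in HT29 under OXA (limma, BY adjusted p = 0.0218). That call was lost without any 1 of 5 of the 6 arrays, all but HT29 OXA replicate 1, when the difference was 0.27 to 0.39. *KRT23*, a type I keratin of the gut, had no call, and its 3 arrays under the combination in HTOXAR3 were spread from 5.71 to 7.72.

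**Figure D1:**
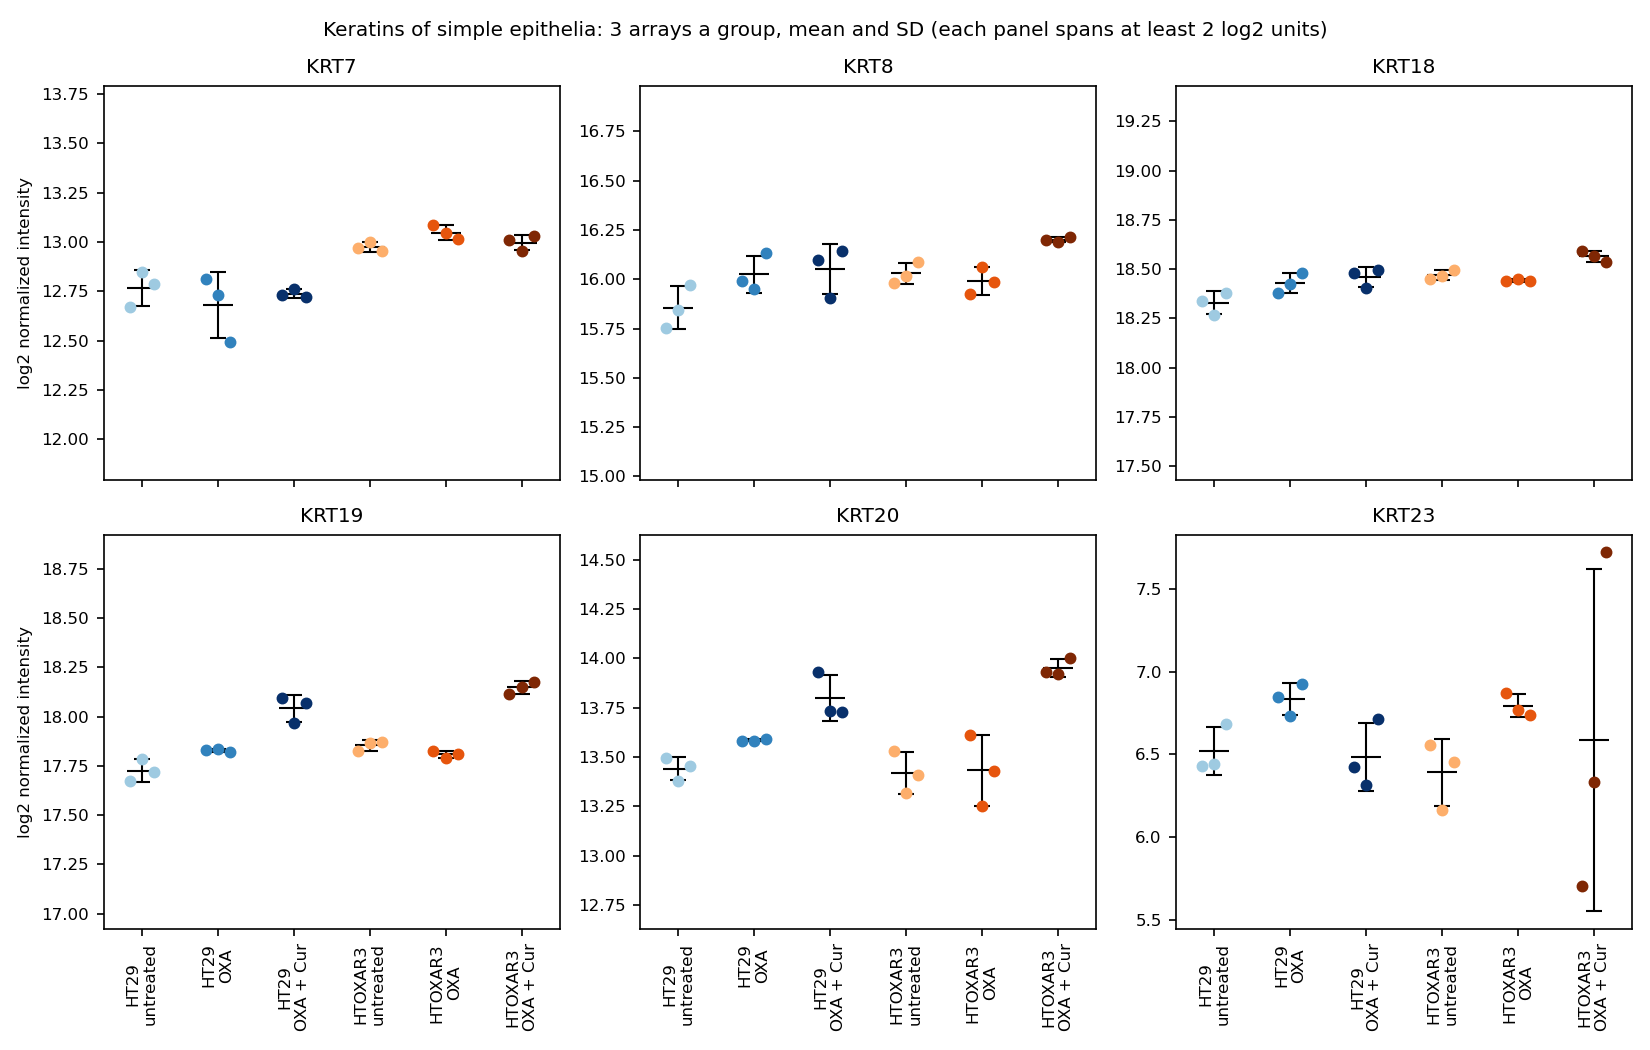
Log2 normalized intensity of the 6 keratins of simple epithelia on each array (points), with the mean and SD of the 3 arrays (line and bars), in HT29 (blue) and HTOXAR3 (orange) untreated, with OXA and with OXA plus Curcumin (Cur). After quantile normalization *KRT8* and *KRT18* stayed within a narrow band, *KRT19* and *KRT20* were highest in the 2 groups with Curcumin, and the *KRT23* arrays of HTOXAR3 under the combination were spread from 5.71 to 7.72.

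Before treatment, 5 keratins were called between the lines, all of them with more signal in HTOXAR3 (9.09% of the keratins, against 6.26% of all names called higher and 11.5% called in either direction). They were *KRT13*, *KRT14*, *KRT17*, *KRT80* and *KRT86*. *KRT12*, a type I keratin of the cornea, was at −0.67 and not called (BY adjusted p = 0.138), but was called lower in HTOXAR3 with Benjamini-Hochberg adjustment and with processed intensities (−0.74). The median difference of the 55 keratins was 0.04 and that of all names −0.03. The limma p of 18 keratins was below 0.05 before adjustment. *KRT13*, a type I keratin of the upper layers of mucosal epithelia, differed most: it was at 10.27, 10.35 and 10.25 on the HT29 arrays and at 12.53, 12.53 and 12.47 on the HTOXAR3 arrays. The groups were far apart, with a difference of 2.22 ± 0.08 (SE), or 4.66-fold (limma, BY adjusted p = 1.32e-09). *KRT13* was also 2.14 higher in HTOXAR3 under OXA and 2.31 higher under the combination (adjusted p = 1.65e-09 and 8.80e-10 by the same test).

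*KRT17*, the type I keratin of wounded and fast-growing epithelia, was at 6.78, 6.79 and 7.18 in untreated HT29 and at 8.35, 8.26 and 8.47 in untreated HTOXAR3. The arrays did not overlap, and the difference was 1.44 ± 0.14 (SE), or 2.72-fold (limma, BY adjusted p = 4.86e-05). *KRT14*, the type I keratin of basal layers, was at 6.49, 6.60 and 6.63 in HT29 and at 7.83, 7.78 and 7.90 in HTOXAR3, 1.26 higher with its brightest probe (adjusted p = 0.000122 by the same test). *KRT80*, a type II keratin with a broad distribution among epithelia, was 0.71 higher (HT29 11.77, 11.87 and 11.59, HTOXAR3 12.43, 12.47 and 12.45, adjusted p = 6.91e-05). *KRT86*, a type II hair keratin, was 0.70 higher (HT29 8.25, 8.27 and 7.96, HTOXAR3 8.85, 8.79 and 8.96, adjusted p = 0.000194). Within each slide that held both lines, all 10 differences of these keratins had the same sign as the pooled ones. *KRT6A* and *KRT6C*, type II partners of *KRT16* and *KRT17*, were not well above background on any array, and *KRT6B* was on 2.

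**Figure D2:**
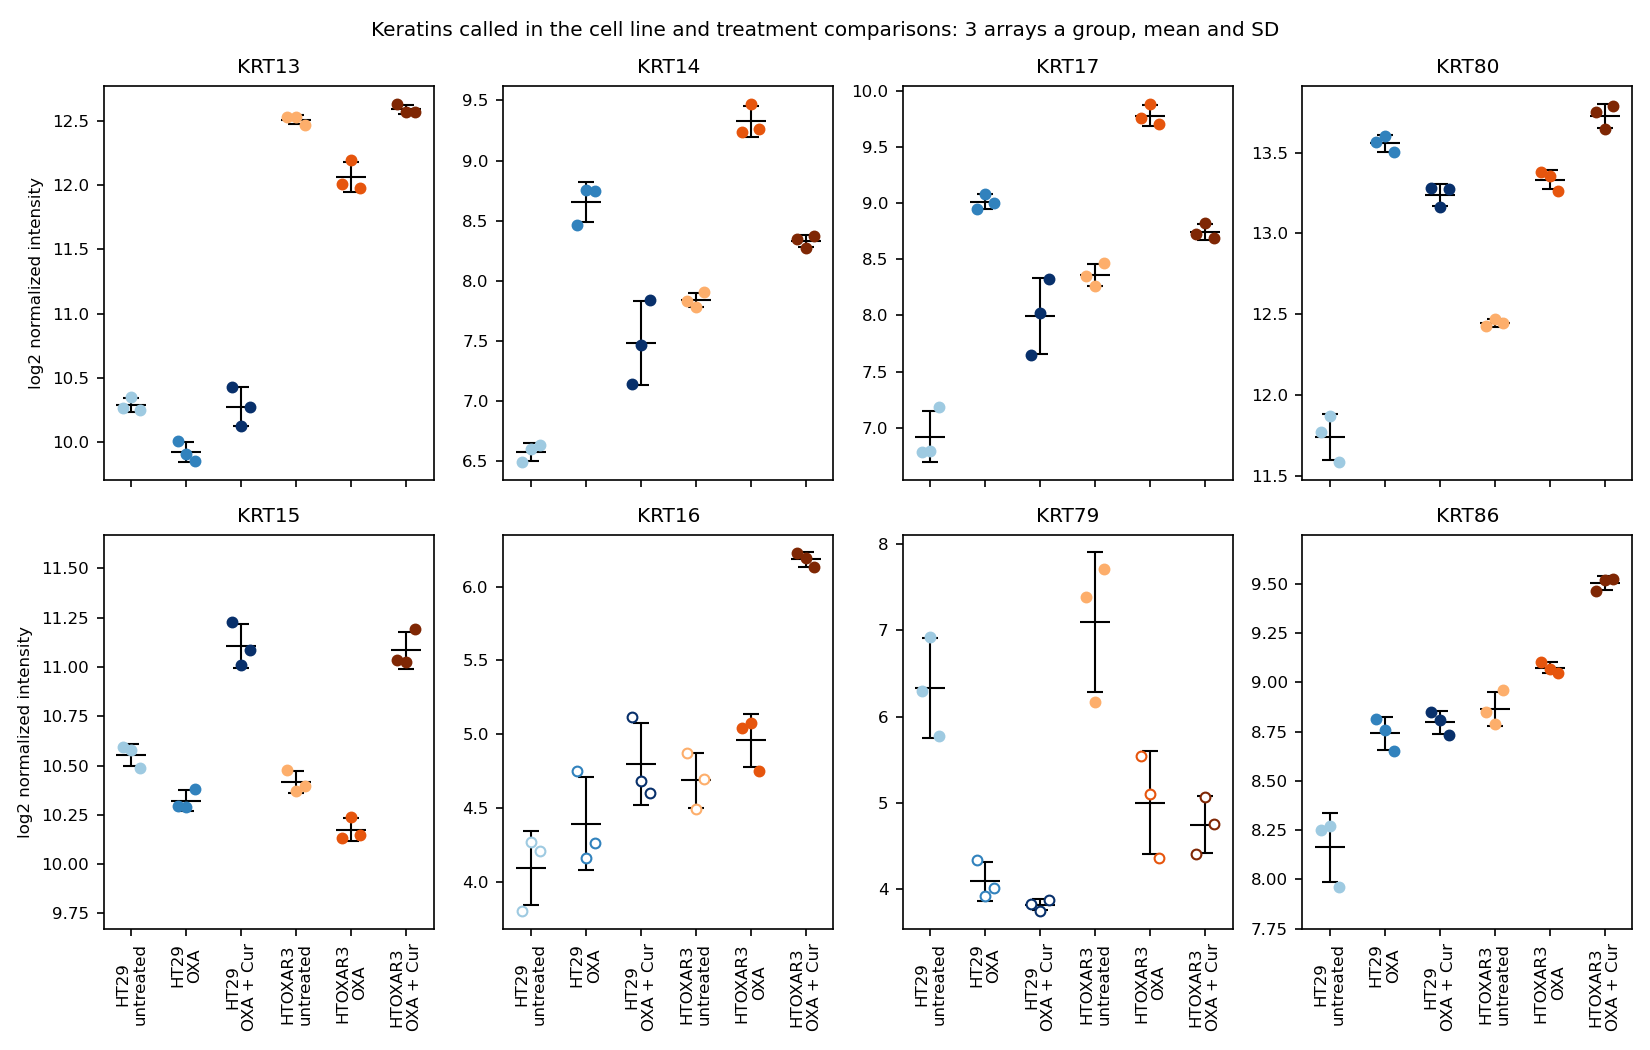
Log2 normalized intensity of 8 called keratins on each array (points), with the mean and SD of the 3 arrays, in the 6 groups; open points mark groups in which fewer than 3 arrays were well above background. *KRT13* separated the lines in every condition, *KRT14* and *KRT17* were highest under OXA alone in both lines, *KRT15* was highest with Curcumin, and *KRT79* was lower in all 4 treated groups.

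OXA alone changed the same 5 keratins in both lines, *KRT14*, *KRT17* and *KRT80* upwards and *KRT13* and *KRT79* downwards, and *KRT86* upwards in HT29 (0.58), while in HTOXAR3 *KRT86* was at 0.21 and not called. The difference of the *KRT86* responses, −0.37, was not called either. This made 6 calls in HT29 (4 higher and 2 lower, 10.9% of the keratins against 15.9% of all names) and 5 in HTOXAR3 (3 higher and 2 lower, 9.09% against 10.2%). The median difference over the keratins was 0.07 in HT29 and 0.01 in HTOXAR3, and over all names −0.01 and 0.01. The limma p of 11 and 8 keratins was below 0.05 before adjustment. The largest rises were those of *KRT17* and *KRT14*. *KRT17* reached 8.95, 9.08 and 9.0 in HT29 with OXA, 2.09 ± 0.14 (SE) or 4.27-fold above the untreated arrays (limma, BY adjusted p = 1.06e-06). In HTOXAR3 it reached 9.75, 9.88 and 9.70, 1.42 or 2.67-fold above untreated (adjusted p = 0.000100 by the same test). *KRT14* rose by 2.08 in HT29, to 8.46, 8.76 and 8.75, and by 1.49 in HTOXAR3, to 9.24, 9.47 and 9.26 (adjusted p = 7.88e-07 and 4.82e-05). Treated and untreated arrays did not overlap for either gene in either line.

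*KRT80* was the keratin whose OXA response differed between the lines. It rose in HT29 to 13.57, 13.60 and 13.50, by 1.81 ± 0.07 (SE) or 3.51-fold (limma, BY adjusted p = 5.71e-09). In HTOXAR3 it rose to 13.38, 13.35 and 13.26, by 0.88 ± 0.07 or 1.85-fold (adjusted p = 1.70e-05 by the same test). The difference of the 2 responses was −0.93 (95% confidence interval −1.15 to −0.71, interaction term in limma, BY adjusted p = 0.00143), the only call among the 55 keratins (1.82%, against 1.01% of all names, 5 keratins with an unadjusted p below 0.05). *KRT80* started 0.71 higher in untreated HTOXAR3, and under OXA the difference between the lines was −0.22, with HT29 above, which was not called. The interaction was also called without any 1 of the 12 arrays, at −0.99 to −0.85. For *KRT17* and *KRT14* the HTOXAR3 response was smaller by 0.67 (95% confidence interval 0.24 to 1.11) and 0.59 (0.17 to 1.02), with unadjusted p = 0.00535 and 0.00940 in limma and an adjusted p of 1, so a difference of responses was not called for them.

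**Figure D3:**
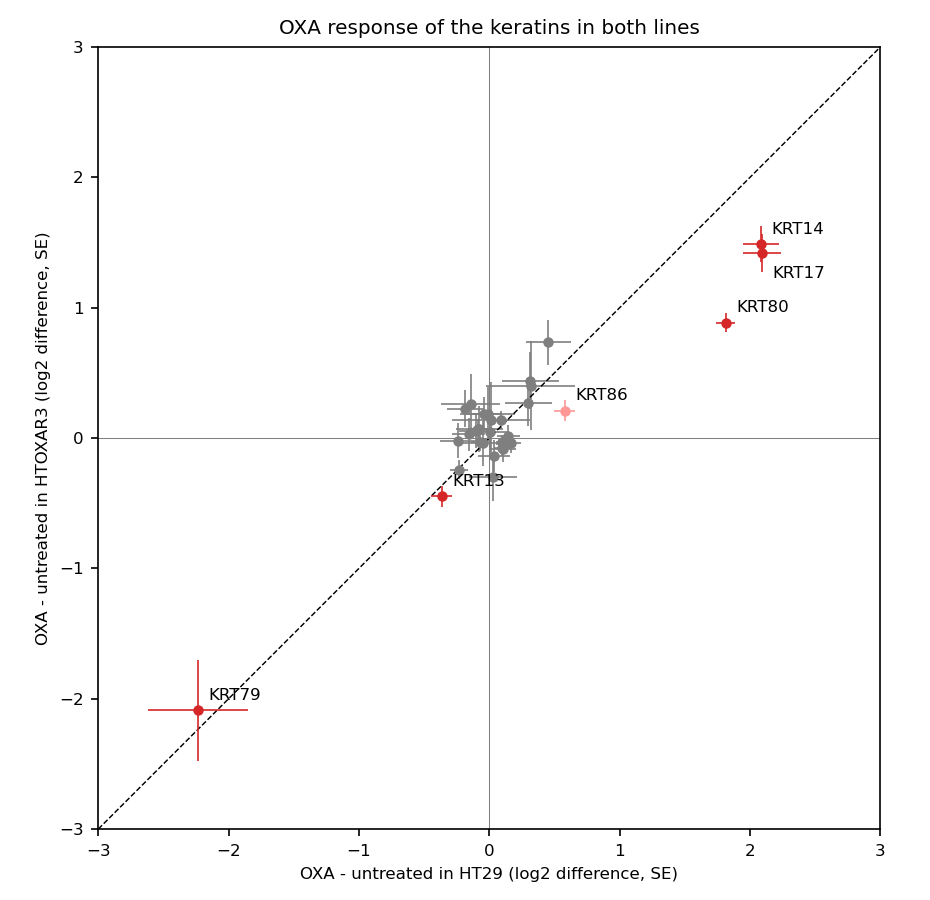
OXA response (OXA minus untreated, log2 difference with SE) of 33 keratins that were well above background on all arrays of at least 1 compared group, in HT29 (x axis) and HTOXAR3 (y axis); red points were called in both lines, the pink point in HT29 alone, and the dashed line marks equal responses. *KRT14*, *KRT17* and *KRT80* lay right of that line, and of these the interaction was called for *KRT80*, at −0.93.

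*KRT13* moved the opposite way, from a mean of 10.29 to 9.92 in HT29 and from 12.51 to 12.06 in HTOXAR3, falls of 0.37 and 0.45 (log2 differences −0.37 and −0.45, limma, BY adjusted p = 0.0350 and 0.0115). Both calls were near the threshold. The HT29 call was lost without any 1 array except HT29 OXA replicate 1, and with slide as a block, and the HTOXAR3 call without untreated replicate 1 or 2 or OXA replicate 1 or 3, while the differences stayed between −0.41 and −0.33 and between −0.52 and −0.41. *KRT79*, a type II keratin of skin appendages, was at 6.30, 6.92 and 5.77 in untreated HT29 and not well above background on any HT29 array with OXA. At the normexp offset of 0 it was at least 4.34-fold lower there, taking the dim arrays at the lowest signal well above background or their own value, whichever was higher (group means 6.33 and 4.09, limma, BY adjusted p = 0.00550). In HTOXAR3 it went from 7.38, 6.17 and 7.71 to 5.54, 5.10 and 4.36, well above background on 2 of the 3 OXA arrays, a difference of −2.09 ± 0.39 (SE, adjusted p = 0.0150). Without untreated replicate 1 or 3, or OXA replicate 2 or 3, that call was lost, at −2.14 to −1.77. With a normexp offset of 50, which compresses low intensities, the fitted differences were −0.97 in HT29 and −1.19 in HTOXAR3, both called, so the bound of 4.34-fold does not hold at that offset. Of the other keratins of suprabasal layers, *KRT10*, detected throughout, differed by 0.10 and −0.07 under OXA and was not called.

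The *KRT14* values above come from the 1 probe of 3 that was bright. Probe A_33_P3345534 was well above background on all 18 arrays, probe A_21_P0011517 on 10 and probe A_21_P0011633 on 8. In HT29 with OXA the used probe stood at 8.65 ± 0.17 (SD, n = 3) against 6.57 ± 0.08 untreated, whereas probe A_21_P0011517 was at 4.39 ± 0.33 against 4.49 ± 0.05 and probe A_21_P0011633 at 4.33 ± 0.29 against 4.26 ± 0.11. Their differences for the OXA response were −0.10 and 0.07 in HT29 and −0.13 and −0.20 in HTOXAR3, none called, and neither probe was well above background on all arrays of both groups in any comparison, so the direction of these differences is not settled. Before treatment the lines differed by 0.33 and 0.66 on these probes (limma, BY adjusted p = 1 and 0.611). When Curcumin was added in HTOXAR3 probe A_21_P0011517 was 0.81 higher (BY adjusted p = 0.0510) with 2 of the 3 OXA arrays well above background. Under the combination that probe was called between the lines, 0.90 higher in HTOXAR3 (BY adjusted p = 0.0157), the side on which the used probe was higher by 0.85. The used *KRT14* probe and the *KRT17* probe gave differences of 1.26 and 1.44 between the untreated lines, 2.08 and 2.09 for OXA in HT29, and −1.17 and −1.02 for added Curcumin in HT29. Whether the used probe also bound *KRT16* or *KRT17* transcripts was not tested. With the mean of the 3 probes, the *KRT14* differences were 0.69 for OXA in HT29, 0.75 between the untreated lines and 0.74 between the lines under the combination, all called, and the other 5 of the 8 calls were lost, with differences of 0.39 and 0.40 for OXA in HTOXAR3 and the combination in HT29, −0.29 and −0.0014 for added Curcumin in HT29 and HTOXAR3, and 0.46 between the lines under OXA.

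**Figure D4:**
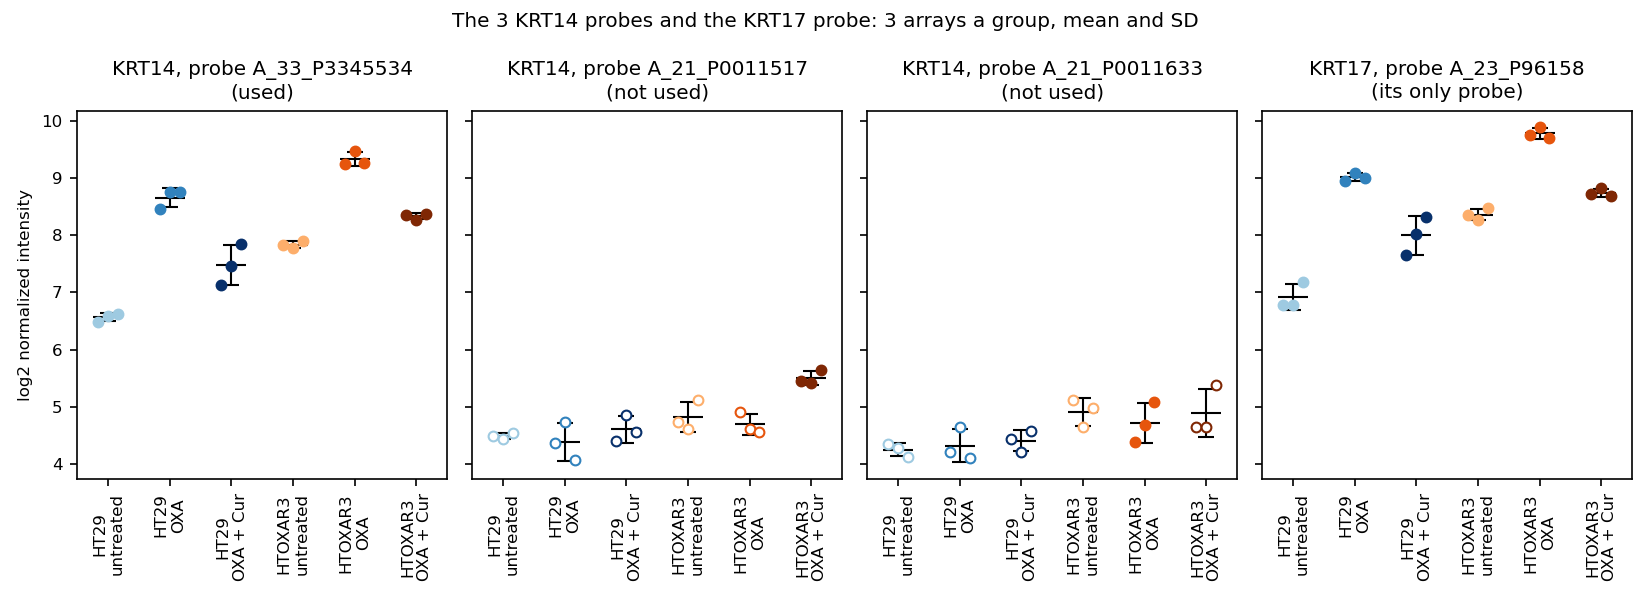
Log2 normalized intensity of the 3 *KRT14* probes and of the *KRT17* probe on each array (points), with the mean and SD of the 3 arrays, in the 6 groups; open points mark groups in which fewer than 3 arrays were well above background. The used *KRT14* probe had the same order of groups as the *KRT17* probe and the other 2 *KRT14* probes stayed between 4.08 and 5.66.

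OXA plus Curcumin was compared with the same untreated arrays as OXA alone, so the responses share those controls. In HT29 9 keratins were called (8 higher and 1 lower, 16.4% against 18.6% of all names, 16 with an unadjusted p below 0.05), and in HTOXAR3 7 (6 higher and 1 lower, 12.7% against 17.5%, 15 with an unadjusted p below 0.05). The keratin median was 0.01 in HT29 and 0.10 in HTOXAR3, and that of all names −0.03 and −0.01. *KRT80*, *KRT15*, *KRT19* and *KRT86* rose and *KRT79* fell in both lines. *KRT80* was 1.5 above untreated in HT29 and 1.28 in HTOXAR3 (limma, BY adjusted p = 3.75e-08 and 2.17e-07). At offset 0 *KRT79* was at least 3.98-fold lower in HT29, where it was not well above background on any array with the combination, and 2.34 lower in HTOXAR3 (log2 difference −2.34, adjusted p = 0.00175 and 0.00340 by the same test). In HTOXAR3 the log2 difference was −1.30 with offset 50 and −2.89 with processed intensities. In HT29 the fitted values, −1.04 and −4.06, are against a group at background and are not bounds, and the bound of 3.98-fold does not hold at offset 50. *KRT86* rose by 0.63 and 0.64 (adjusted p = 0.000311 and 0.000328). *KRT17* and *KRT14* were still 1.08 and 0.91 above untreated in HT29 (adjusted p = 0.000480 and 0.00161), and 0.38 and 0.49 above untreated in HTOXAR3, where they were not called. *KRT10* was called in HT29 alone, at 0.30 (adjusted p = 0.0243), and the call was lost without untreated replicate 2 or 3 or combination replicate 2 or 3, at 0.25 to 0.29, and with 75th percentile scaling of either kind. *KRT2*, also called there, was not well above background on any array and is given no fold.

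What Curcumin added to OXA was read from arrays with the combination against arrays with OXA alone, so it shares arrays with both responses. It gave 3 calls in HT29 (1 higher and 2 lower, 5.45% against 5.53% of all names, 11 with an unadjusted p below 0.05) and 10 in HTOXAR3 (8 higher and 2 lower, 18.2% against 8.83%, 15 with an unadjusted p below 0.05). The keratin median was 0.03 in HT29 and 0.08 in HTOXAR3, and that of all names −0.02 in both. In both lines *KRT14* and *KRT17* were lower and *KRT15* was higher with Curcumin. *KRT17* stood at 7.65, 8.02 and 8.32 in HT29 and at 8.72, 8.82 and 8.69 in HTOXAR3 with the combination, all below the arrays with OXA alone. The differences were −1.02 ± 0.14 and −1.04 ± 0.14 (SE, limma, BY adjusted p = 0.00377 and 0.00188), about 2.02-fold and 2.05-fold lower. The used *KRT14* probe was lower as well (log2 differences −1.17 and −1.0, adjusted p = 0.000813 and 0.00192).

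*KRT15*, the other type I keratin of basal layers and a marker of epithelial progenitors, was lowest with OXA alone and highest with the combination in both lines. It was at 10.59, 10.58 and 10.49 in untreated HT29, at 10.29, 10.29 and 10.38 with OXA and at 11.23, 11.01 and 11.09 with the combination. In HTOXAR3 it was at 10.48, 10.37 and 10.40, at 10.13, 10.24 and 10.15, and at 11.04, 11.02 and 11.19. The arrays with Curcumin were above all others in each line. Over OXA alone *KRT15* was higher by 0.79 ± 0.07 in HT29 and 0.91 ± 0.07 in HTOXAR3 (SE, limma, BY adjusted p = 8.13e-05 and 1.48e-05), and over untreated by 0.56 and 0.67 (adjusted p = 0.000305 and 5.95e-05). OXA alone moved it by −0.23 and −0.24, which was not called.

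*KRT16*, a type I partner keratin of wounded epithelia, was brightest in HTOXAR3 with the combination, at 6.23, 6.19 and 6.13. It was at 5.05, 5.08 and 4.75 with OXA alone, and untreated HTOXAR3 had it well above background on 1 array of 3. The differences were 1.23 ± 0.18 over OXA and 1.5 ± 0.18 over untreated (SE, limma, BY adjusted p = 0.00283 and 0.000191). The call over OXA was lost with the scanner software's processed intensity, where the difference was 1.64, and with a normexp offset of 50 it was called at 0.60. Over untreated the difference was 0.69 with offset 50 and 2.09 with processed intensities. In HT29 it was not well above background on any untreated array, on 1 array with OXA and on 2 with the combination, and had no call.

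*KRT19* and *KRT20*, type I keratins of gut epithelium, were called higher with Curcumin in some comparisons. *KRT20* was at 13.95 ± 0.05 (SD, n = 3, lowest array 13.92) in HTOXAR3 with the combination, above every untreated (13.53, 13.32 and 13.41) and OXA array (13.61, 13.25 and 13.43), by 0.53 and 0.52 (limma, BY adjusted p = 0.00351 and 0.00924). Without combination replicate 3 the second of these calls was lost, at 0.49. In HT29 *KRT20* differed by 0.36 over untreated (BY adjusted p = 0.0722) and was not called, but it was called, at 0.35 to 0.36, with an offset of 16 or 50, without dim probes, with Benjamini-Hochberg adjustment and with replicate number as a block. A difference of the *KRT20* responses between the lines was not called. *KRT19* was higher by 0.32 in HT29 and 0.29 in HTOXAR3 over untreated, and by 0.34 in HTOXAR3 over OXA (adjusted p = 0.00251, 0.00508 and 0.00345). The 2 differences over untreated were lost with 75th percentile scaling, at 0.14 to 0.15, under which the median of all names was −0.15 to −0.18. The remaining calls for added Curcumin in HTOXAR3 were *KRT13* at 0.53 (adjusted p = 0.00389), *KRT80* at 0.39 (adjusted p = 0.0182), *KRT86* at 0.43 (adjusted p = 0.0202) and *KRT34*, a hair keratin above background on 2 of 3 arrays with the combination and on none with OXA (group means 5.01 and 4.02, adjusted p = 0.0239, with a difference of 0.31 at offset 50). The *KRT86* and *KRT34* calls were lost without any 1 of the 6 arrays (0.42 to 0.45 and 0.90 to 1.06), and the *KRT80* call without combination replicate 1 or 3 or OXA replicate 2 or 3 (0.36 to 0.40). The *KRT34* call was also lost with slide or replicate number as a block, and its fitted differences are against a group at background and are not bounds. *KRT12* was not called at the main settings. For added Curcumin in HTOXAR3 it was called higher with Benjamini-Hochberg adjustment, dim probes left out and both 75th percentile scalings (0.75 to 0.97). For the combination in HTOXAR3 the same settings and offset 50 called it higher (0.40 to 0.79). At the main settings no keratin was called for a difference between the lines in what Curcumin added (0 of 55, with 6 unadjusted p below 0.05 in limma, against 0.135% of all names) or in the response to the combination (0 of 55, 4 unadjusted, against 0.856%). *KRT80* came closest in the former, 0.71 (95% confidence interval 0.49 to 0.93, BY adjusted p = 0.0596), with log2 differences for added Curcumin of −0.32 in HT29 (not called) and 0.39 in HTOXAR3. That difference was called for *KRT80* with an offset of 50 or 16, processed intensities, Benjamini-Hochberg adjustment or dim probes left out, at 0.71 to 0.76. In the response to the combination *KRT16* was called with offset 50 alone, at 0.48, with its untreated HT29 arrays at background.

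Under treatment the lines differed at 4 keratins with OXA, all higher in HTOXAR3 (7.27%, against 7.14% of all names called higher and 14.1% in either direction, 11 with an unadjusted p below 0.05), and at 7 with the combination, all higher in HTOXAR3 (12.7%, against 6.95% called higher and 13.9% in either direction, 14 with an unadjusted p below 0.05). These comparisons set a line with 10 µM OXA against one with 30 µM. The keratin medians were 0.02 and 0.10, and those of all names 0.00 and 0.01. *KRT12* was at −0.66 under OXA (BY adjusted p = 0.131) and was called lower in HTOXAR3 with Benjamini-Hochberg adjustment and with both 75th percentile scalings (−0.66 and −0.90). *KRT17* and *KRT14* were 0.77 and 0.67 higher under OXA (limma, BY adjusted p = 0.0122 and 0.0258). The *KRT14* call was lost without any 1 of the 6 arrays (0.57 to 0.72) and with slide as a block, and the *KRT17* call without HT29 OXA replicate 1 or 3 or HTOXAR3 OXA replicate 2 (0.72 to 0.76). Under the combination they were 0.75 and 0.85 higher (adjusted p = 0.0150 and 0.00398). The *KRT17* call was then lost without replicate 1 or 2 of either group, at 0.57 to 0.91 over the left-out arrays. *KRT16* was 1.38 higher in HTOXAR3 (adjusted p = 0.000499), 0.65 with offset 50 and 1.85 with processed intensities, and well above background on 2 of the 3 HT29 arrays. *KRT86* was higher by 0.70 (adjusted p = 0.000161) and *KRT80* by 0.49 (adjusted p = 0.00188). *KRT34*, not well above background on any HT29 array with the combination, was at least 1.52-fold higher at offset 0 (adjusted p = 0.0169), with a log2 difference of 0.30 at offset 50. Its call was lost without HT29 combination replicate 3 or HTOXAR3 combination replicate 2 or 3, at 0.78 to 0.96. These fitted values are against a group at background and are not bounds.

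**Figure D5:**
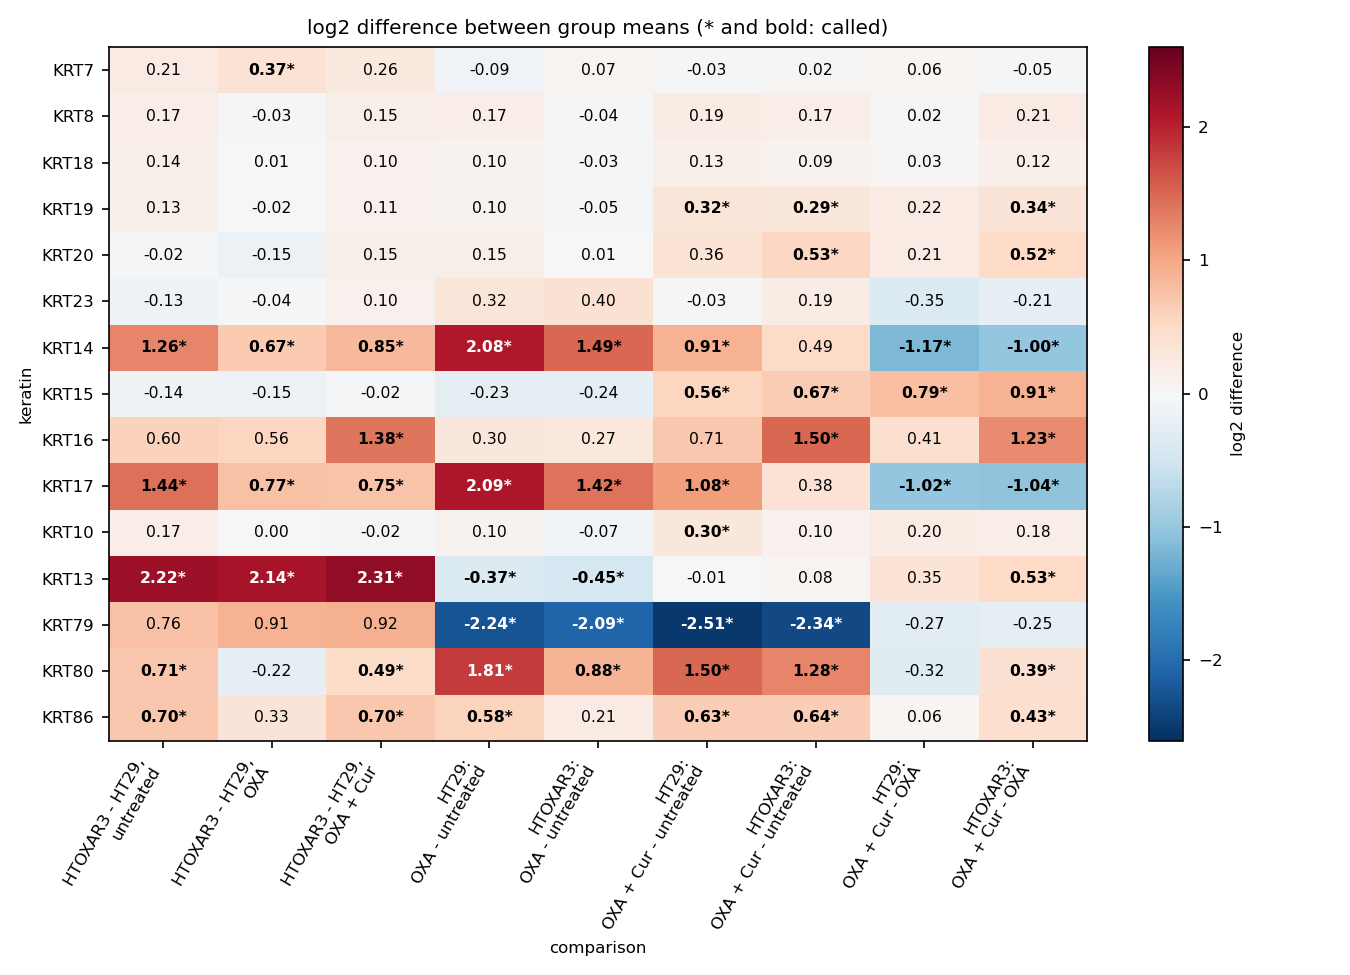
Log2 difference between group means of 15 keratins (rows, simple epithelial keratins first) in 9 comparisons (columns), coloured red where the first group was higher and blue where it was lower; bold values with a star were called. The rows of *KRT14* and *KRT17* were red for both lines with OXA and blue for added Curcumin, the *KRT15* row was red wherever Curcumin was the difference, and *KRT8* and *KRT18* had no called value.

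The remaining keratins gave few results. Of the 17 hair keratins, 8 were detected on all 18 arrays, 3 on none and 6 on some, and *KRT34* and *KRT86* were the only ones called. *KRT81*, a neighbour and close relative of *KRT86*, lay between 13.55 and 13.92 on all arrays and was not called. The used probe of *KRT83*, another relative, averaged 11.96 and was not called. Its other probe averaged 4.69 and was well above background on the 12 treated arrays and on no untreated array. It was called higher for OXA in HT29 and for the combination in HT29 and HTOXAR3 (limma, BY adjusted p = 0.0473, 0.00206 and 0.000374), and no fold is given because the untreated arrays were at background. Of 9 keratins of the inner root sheath and companion layer, *KRT73* alone was detected on every array, 3 were on none, and none was called. Among 14 keratins of suprabasal and mucosal layers 7 were well above background throughout and 5 were called, *KRT2*, *KRT10*, *KRT13*, *KRT79* and *KRT80*. *KRT222* was not above background on any array. Of the 27 keratins on chromosome 12, 5 were called in any comparison, and of the 28 on chromosome 17, 9, where 33.6% of all names were.

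Promoter sequences were at hand for 34 of the 55 keratins, as RefSeq windows on GRCh38.p14 from 250 bases before to 50 bases after the gene start. Among them were 5 of the 14 called keratins. Windows of *KRT7*, *KRT13*, *KRT14*, *KRT15*, *KRT16*, *KRT17*, *KRT19*, *KRT80* and *KRT86* were missing, so the counts of letters do not cover these. The TATA letters, TATAAA on either strand, were found in 20 of these 34 windows (58.8%) and in 3264 of 27305 promoters of all genes. In 15 of the 34 (44.1%) the letters started between 35 and 25 bases before the gene start, against 2.86% of all promoters. The letters were in 6 of the 12 windows of keratins well above background on all arrays, in 5 of the 8 of keratins on no array, and in 2 of the 5 of called keratins. Those 2 are shown for their last 60 bases before the start, both on the minus strand, with TATAAA in capitals.
KRT10, chr17:40822615-40822674: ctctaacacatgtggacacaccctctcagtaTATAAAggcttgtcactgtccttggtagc
KRT34, chr17:41382307-41382366: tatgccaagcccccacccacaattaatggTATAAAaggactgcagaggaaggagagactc
The AP-1 letters TGANTCA were in none of the 34 windows and in 7.76% of all promoters, the NF-κB letters GGGA and CC with a gap of 4 letters in 6 (17.6%) and 25.1%, the Sp1 letters GGGCGG in 6 (17.6%) and 44.6%, and the AP-2 letters GCCNNNGGC in 5 (14.7%) and 23.0%, all on either strand. These are matches of letters and not measured binding sites.

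Genes that work with keratins were read from lists. Of 31 genes of the cornified envelope and of keratinocyte differentiation, 9 (29.0%) were called between the untreated lines, each with more signal in HTOXAR3 (6.26% of all names were called higher and 11.5% in either direction), with a median difference of 0.13 against −0.03 for all names. DMKN, a secreted protein of differentiated skin, was at 5.22 ± 0.27 (SD, n = 3) in HT29 and 13.26 ± 0.07 in HTOXAR3, a difference of 8.04 ± 0.11 (SE, limma, BY adjusted p = 6.16e-14). IVL (involucrin), a precursor of the cornified envelope, was not well above background on any untreated HT29 array. At a normexp offset of 0 it was at least 16.7-fold higher in HTOXAR3 (adjusted p = 2.14e-10 by the same test), and this bound was not tested at another offset. TCHH (trichohyalin) and PI3 (elafin) were 3.63 and 2.48 higher (adjusted p = 2.88e-09 and 1.57e-09). With OXA, DMKN and PI3 were called higher and SPRR1A lower in HT29, and PI3 was called higher and IVL lower (log2 difference −1.85) in HTOXAR3, 9.68% and 6.45% of the list against 15.9% and 10.2% of all names.

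Of 22 genes of desmosomes and filament linkers, 2 were higher and 5 lower in untreated HTOXAR3 (31.8%, against 11.5% of all names), with a median of 0.02. The epiplakin gene EPPK1 was lower by 0.74, FAM83H, which recruits a kinase to keratin filaments, by 0.69 and the desmoplakin gene DSP, which anchors filaments in desmosomes, by 0.40 (log2 differences −0.74, −0.69 and −0.40, limma, BY adjusted p = 0.0192, 0.00229 and 0.0167), and the filament-binding TCHP was higher by 0.41 (adjusted p = 0.00893). OXA in HT29 gave 7 higher and 2 lower (40.9%, against 15.9% of all names), with a median of 0.22 against −0.01 for all names, and in HTOXAR3 3 higher and 1 lower (18.2% against 10.2%), with a median of 0.22. FAM83H fell in both lines, by 1.96 in HT29 and 0.68 in HTOXAR3 (log2 differences −1.96 and −0.68). Of 16 other intermediate filament genes 2 (12.5%) were called between the untreated lines, both higher in HTOXAR3, namely the lens filament gene BFSP1 by 1.48 and VIM (vimentin) by 1.30 (adjusted p = 1.18e-08 and 0.000250), VIM from 4.99 ± 0.20 to 6.29 ± 0.21 (SD, n = 3). Of 21 epithelial transcription factors known to act on keratin genes 3 were higher and 3 lower (28.6%, against 11.5% of all names). The epithelial factor ELF3 was lower by 0.71 and the AP-1 subunit FOSL1 by 0.50 (log2 differences −0.71 and −0.50, adjusted p = 0.000182 and 0.000806), and GRHL3, a factor of barrier formation, was higher by 0.55 (adjusted p = 0.00819). With OXA, GRHL3 rose by 1.41 in HT29 and 0.92 in HTOXAR3 and FOSL1 by 0.45 and 0.91, among 4 higher and 3 lower in HT29 (33.3%, against 15.9% of all names) and 3 higher and 2 lower in HTOXAR3 (23.8% against 10.2%). Of 91 keratin-associated proteins, which crosslink hair keratins, 1 was called between the untreated lines, KRTAP4-1, which was higher in HTOXAR3 (1.10%, against 11.5% of all names). With OXA, 1 was higher and 5 lower in HT29 (6.59%, against 15.9% of all names), and 2 were higher and 3 lower in HTOXAR3 (5.49% against 10.2%).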

How the data were processed

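The authors deposited 1 scanner file per array, with Agilent Feature Extraction intensity values for 62976 spots, from total RNA labelled with Cy3 by the one-colour protocol. Mean intensity was corrected with the local background by normexp (offset 0) and quantile normalized over non-control spots in limma 3.58.1 (R 4.3.3). The submitters' notes name limma without a version, and the authors' methods give this correction and normalization without an offset. The lowest value of each column in the table of log2 values that the authors deposited lay between 5.65 and 5.72 (medians 6.48 to 6.49), close to the log2 of 50 (5.64), so the values given for an offset of 50 may be nearer to theirs. An offset of 50 lowered the differences of dim keratins (*KRT16*, *KRT34* and *KRT79*). Spots with an outlier flag were left out, replicate spots averaged, and each gene name read from its brightest probe. A probe counted as well above background where at least 50% of its spots were. Linear models with 6 group terms were fitted to all names, with empirical Bayes, BY adjustment and the thresholds given. The fit was tested on simulated data. Genes named are *KRT7*, 8, 18, 19, 20 and 23, the called keratins with a bright group, and up to 4 called genes of each list by the size of the basal difference. Others are named where a count of 5 or fewer, a probe pair, a neighbour or, for *KRT12* and *KRT40*, calls under other settings gave reason, after their values were seen. Members and lists were chosen with earlier results of these data known. RefSeq symbols matched 53 of the 55 names by accession. A few list genes and probe sequences are not reported here. That table was not used further, since its rows carry no gene names.

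Replicate numbers were checked for pairing. Same-numbered arrays deviated together, with every correlation over 0.1, for OXA in HT29 (0.117 to 0.242) and added Curcumin in HTOXAR3 (0.109 to 0.195), where all 3 pairs shared a slide, and not in the other 7 comparisons. The arrays lay on 3 slides (2, 8 and 8 arrays). The number of arrays limits the precision.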

Additional observations from a re-analysis of the deposited data

Results flagged for a closer look

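The *KRT80* response to OXA differed between the lines in the interaction term of the fit, by −0.93 on the log2 scale (limma, BY adjusted p = 0.00143). The rise was seen in 3 of 3 arrays of each line, at 1.81 in HT29 with 10 µM OXA and 0.88 in HTOXAR3 with 30 µM. The untreated level was 0.71 higher in HTOXAR3, the doses differed, and their part in the difference was not tested.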

How the results depend on the processing

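Of the 57 keratin calls, 15 were kept under every setting and left-out array. A normexp offset of 50 or 16 ended 1 call each, 75th percentile scaling of processed and of normexp values 4 and 6, the mean of a gene's probes 5, slide as a block 3, a fold minimum of 2 34, and fits to the compared groups alone 35, while Benjamini-Hochberg adjustment ended 0 and leaving out dim probes 0 of the 54 that it kept in the test. Within slides, each difference of a called keratin had the sign of the pooled ones.

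Counts over all names follow in parentheses. For added Curcumin in HT29 (2002), 5 keratins were called with offset 50 (2570), with Benjamini-Hochberg adjustment (3702) and without dim probes (2689), and 0 in the fit to its own groups (16). A difference of the Curcumin additions (49) was called for 1 keratin, *KRT80*, with offset 50 (181), offset 16 (79), processed values (52), Benjamini-Hochberg adjustment (323) and dim probes left out (139). A difference of the combination responses (310) was called for 1, *KRT16*, with offset 50 (655). Benjamini-Hochberg adjustment gave 9 calls between the untreated lines (6146, from 4177), 11 for the combination in HTOXAR3 (8495, from 6322) and 8 between the lines under OXA (7228, from 5111). With a fold minimum of 2 there were 3 calls each between the untreated lines (1013), for OXA in HTOXAR3 (468) and for the combination in HT29 (1369) and in HTOXAR3 (1194), 2 each for added Curcumin in HTOXAR3 (363) and the lines under the combination (1165), 1 for the lines under OXA (1266) and 0 for the difference of the OXA responses (178). Fits to the compared groups alone gave 3 each between the untreated lines (1258), for OXA in HT29 (1338) and in HTOXAR3 (592) and for the lines under the combination (1607), 2 each for the combination in HT29 (2056) and the lines under OXA (1611), and 1 for added Curcumin in HTOXAR3 (223). Leaving out 1 array gave 5 to 6 calls between the untreated lines, 5 to 6 and 3 to 4 for OXA in HT29 and HTOXAR3, 7 to 9 and 7 to 8 for the combination, 3 to 4 and 6 to 8 for added Curcumin, 1 to 2 between the lines under OXA and 5 to 7 under the combination.

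The sign of *KRT2* for the combination in HT29 turned with processed values, at −0.25. On *KRT14* probe A_21_P0011517 the sign turned for OXA in HT29 (−0.10) and HTOXAR3 (−0.13) and for added Curcumin in HT29 (0.22) and HTOXAR3 (0.81), and on probe A_21_P0011633 for OXA in HTOXAR3 (−0.20) and added Curcumin in HT29 (0.083) and HTOXAR3 (0.18). Neither probe was well above background on all arrays of both groups in any of these comparisons, so these signs are not settled. The cause was not tested.

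With the replicate number as a block, 10 keratins were called for the combination in HT29 and 9 for added Curcumin in HTOXAR3, where the *KRT34* call was lost, and the counts of the other comparisons were 5 between the untreated lines, 6 and 5 for OXA in HT29 and HTOXAR3, 7 for the combination in HTOXAR3, 3 for added Curcumin in HT29, 4 and 7 between the treated lines, and 1, 0 and 0 for the differences of responses.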
